A study of Mus musculus with 6 samples.

Results

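Mitochondrial ribosomal proteins were examined in F4/80+ cells taken from tumours grown in St2-/- or wild type mice. The members are the genes whose symbol begins with Mrpl (large subunit) or Mrps (small subunit) followed by a digit, and they numbered 77 of the 19938 genes tested, 48 with a large-subunit and 29 with a small-subunit symbol. F4/80 is displayed on the surface of macrophages in the mouse. ST2 binds the cytokine IL-33. The St2-/- group held 3 samples of F4/80+ cells from tumours in mice that lack ST2, and the wild type group held 3 such samples from tumours in wild type mice. Each sample was hybridised to its own Affymetrix Gene 1.0 ST array. The genotype is that of the host, and the labels used here give no ST2 status for the implanted cells. The labels give no strain, age, sex, tumour type or time after implantation. Nor do they tie each sample to its own mouse, so the p-values reflect a spread between samples that may be technical.

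The mitochondrial ribosome translates the few messengers encoded by mitochondrial DNA, all of them for membrane subunits of the respiratory chain and the ATP synthase. Its RNAs come from mitochondrial DNA, whereas its proteins are encoded in the nucleus, made in the cytosol and imported. Some of these proteins have bacterial counterparts and others are found only in mitochondria. The large subunit forms peptide bonds and releases the chain through an exit tunnel at the inner membrane, and the small subunit holds and decodes the messenger.

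Values are log2 expression values as deposited, and differences are St2-/- minus wild type on that scale. A gene was called higher or lower where its adjusted p was under 0.05 in limma, a linear model with variances moderated across genes, with Benjamini-Hochberg adjustment over all 19938 genes. Members were chosen by symbol, and for the 8 members with several probe sets the one used was selected on the mean over the 6 arrays. RefSeq (GRCm38.p6) lists 78 protein-coding symbols of this form. The remaining gene, Mrpl53, shares its probe set with Ccdc142 and was not analysed here. In the platform table used, no probe set carried the name of the ST2 gene, alone or beside other genes, and the genotype was not checked. Markers of macrophages were bright, with Adgre1 (the gene of F4/80) at 11.65, 11.58 and 11.65 in St2-/- and 11.31, 11.36 and 11.28 in wild type. Csf1r, the receptor for macrophage colony-stimulating factor, lay between 12.05 and 12.14 on the 6 arrays. Among the 11 macrophage markers measured, Adgre1, Aif1, Fcgr1 and Spi1 were called higher in St2-/-, and Mertk, Msr1, Lyz2 and Cd14 lower.

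Of the 77 members, 14 were higher in St2-/- and 0 were lower. The called members made up 18.2% of the family. Over all genes tested, 20.8% were called, 10.7% higher and 10.0% lower. Among the 11955 genes left when the dimmest 40% were set aside, which held 76 of the members, 17.2% were called higher and 13.2% lower. In this fit the share of members called higher was near that of the brighter genes. With the dimmest 40% left out of the fit itself, 23 of 76 members were higher and 1 was lower. In that fit 2556 of 11955 genes were higher (21.4%) and 1949 lower. Cyclic loess called 11 members higher and 2 lower, against 1729 and 1964 of all 19938 genes. A variance prior that follows intensity called 20 members higher and 2 lower, against 2700 and 2171 of all genes. Before adjustment, 31 members had a limma p under 0.05, as had 6571 of all 19938 genes and 5308 of the 11955 brighter genes. The median difference was 0.14 over the members, with quartiles of 0.05 and 0.22, against -0.02 over all genes and 0.02 over the brighter genes. Differences were above 0 for 60 members (77.9%) and for 53.6% of the brighter genes. They ranged from -0.21 for Mrpl41 to 0.59 for Mrpl42.

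Groups did not overlap for many members. All St2-/- arrays lay above all wild type arrays for 35 members (45.5%), and all lay below for 3 (3.90%), Mrpl33, Mrpl41 and Mrpl51. Over all genes these shares were 18.1% above and 18.3% below, and over the brighter genes 28.0% and 20.9%. The median large-subunit gene read 7.58, 7.56 and 7.62 in St2-/- and 7.42, 7.39 and 7.33 in wild type. The median small-subunit gene read 7.15, 7.12 and 7.13 in St2-/- and 7.03, 6.96 and 7.02 in wild type. The median over all genes went the other way, with 5.82, 5.82 and 5.81 in St2-/- and 5.91, 5.88 and 5.93 in wild type. When each array was centred on its median, the all-gene median difference became 0.07, 32 members were called higher against 18.5% of all genes, and 68 of 77 differences were above 0. The subunit medians were 0.09 for the large and 0.10 for the small subunit after cyclic loess, and 0.21 and 0.24 with centring. In that setting 74.0% of all calls were higher, against 51.7% in the deposited scaling and 46.8% after cyclic loess. Because cells were analysed in bulk, fewer cells of a type and less RNA per cell cannot be told apart.

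**Figure D1:**
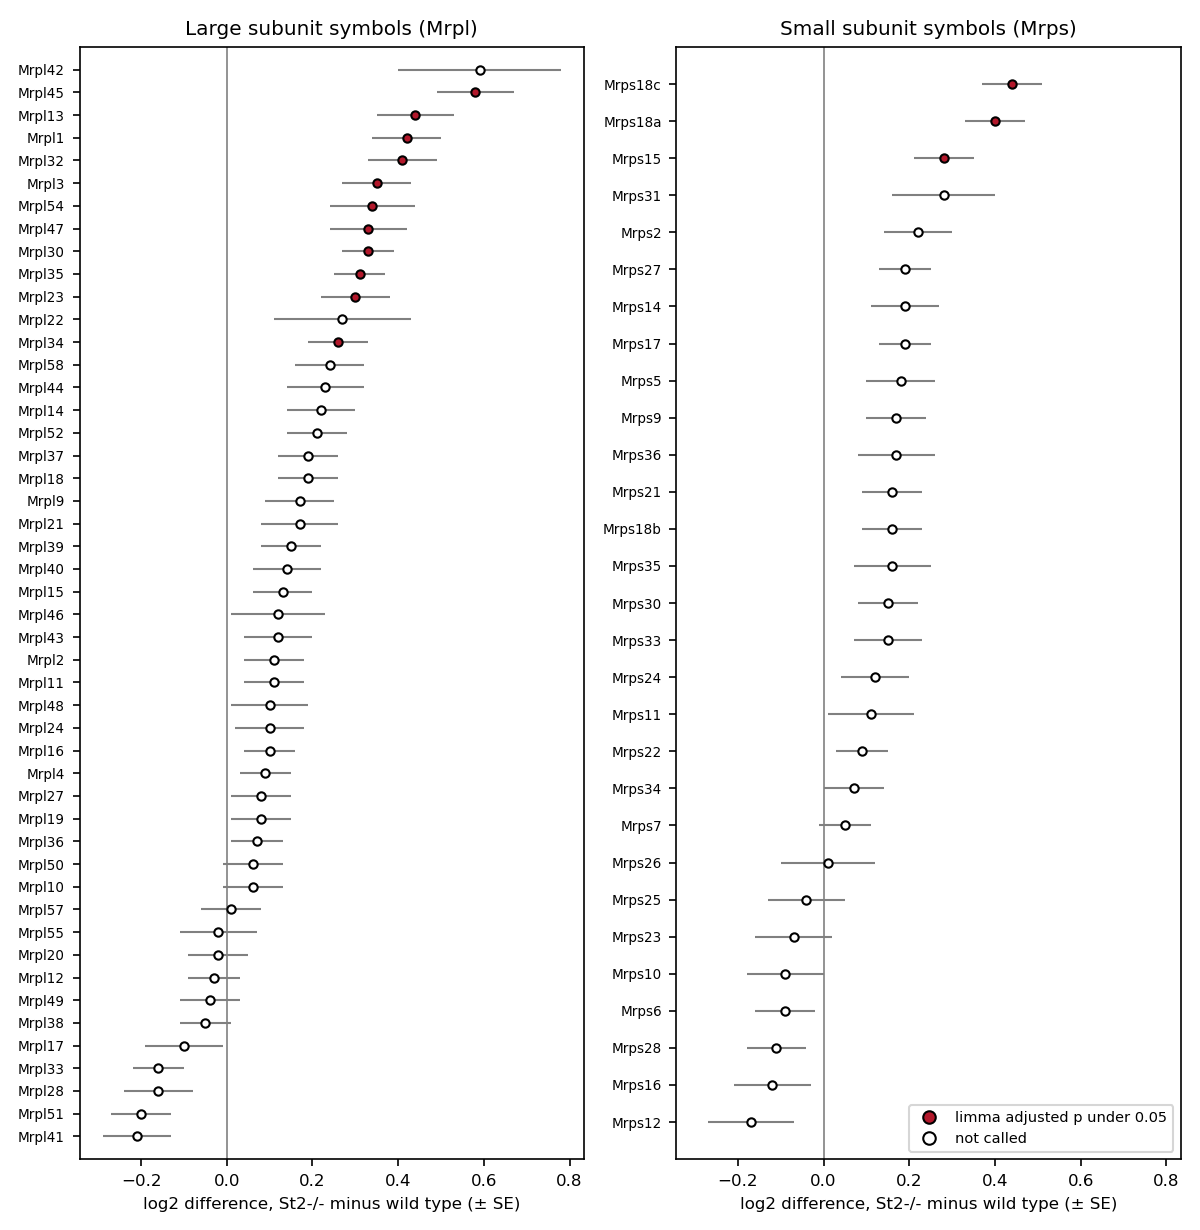
Log2 difference (St2-/- minus wild type, with its SE) of every member, by subunit. The points run from -0.21 to 0.59, and the 14 called members all lie above 0.

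**Figure D2:**
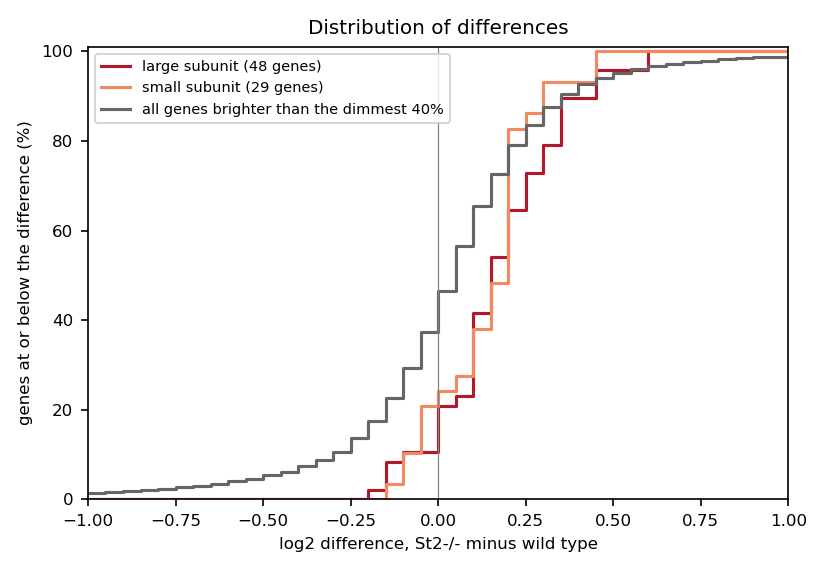
Cumulative share of genes against the log2 difference (St2-/- minus wild type) for large-subunit members, small-subunit members and the brighter genes. At or below 0 lie 20.8% of the large-subunit members, 24.1% of the small-subunit members and 46.5% of the brighter genes.

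The large subunit had 11 of 48 members called higher (22.9%) and 37 not called, with a median difference of 0.12. At the exit of the peptide tunnel, where new chains meet the inner membrane, 4 of 7 members were higher. The grouping by structural role was made after values were seen, so this count is a description, to be set beside the 10.7% of all genes and 17.2% of brighter genes called higher. Mrpl45, which anchors the ribosome to the inner membrane, read 7.83, 7.75 and 8.09 in St2-/- and 7.40, 7.28 and 7.25 in wild type (probe set 10380751, chromosome 11). Every St2-/- array lay above every wild type array, and the rise of 0.58 ± 0.09 (SE), or 1.49-fold, had a limma adjusted p of 0.00185. Mrpl32, which an inner-membrane protease trims before it joins the ribosome, read 6.75, 6.77 and 6.72 in St2-/- and 6.36, 6.48 and 6.17 in wild type. The groups again did not overlap, and Mrpl32 rose by 0.41 ± 0.08 (SE) with a limma adjusted p of 0.00683. Mrpl47, a counterpart of a bacterial tunnel-exit protein, read 6.08, 6.08 and 6.29 in St2-/- and 5.94, 5.68 and 5.85 in wild type. Its rise of 0.33 ± 0.09 (SE) had a limma adjusted p of 0.0285. Mrpl23, at the same exit, rose by 0.30 ± 0.08 (SE), with a limma adjusted p of 0.0265. It stood outside the rule for named genes and is given after its values were seen, as are Mrpl34 and Mrpl35. The exit members not called were Mrpl17, Mrpl22 and Mrpl24, with differences of -0.10, 0.27 and 0.10 and overlapping groups. Mrpl22 read 4.89, 4.69 and 4.80 in St2-/- and 4.19, 4.45 and 4.92 in wild type.

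Outside the exit, Mrpl1 forms the mobile stalk that guides spent transfer RNA out of the ribosome. It read 7.10, 7.14 and 7.24 in St2-/- and 6.63, 6.73 and 6.86 in wild type, and rose by 0.42 ± 0.08 (SE) with a limma adjusted p of 0.00403. Mrpl13, a counterpart of a bacterial protein needed early in subunit assembly, read 8.04, 8.11 and 8.05 in St2-/- and 7.62, 7.81 and 7.44 in wild type. The St2-/- arrays lay above the wild type arrays in both genes, and Mrpl13 rose by 0.44 ± 0.09 (SE) with a limma adjusted p of 0.00757. Mrpl3, which reaches toward the catalytic centre, read 7.59, 7.62 and 7.72 in St2-/- and 7.31, 7.43 and 7.14 in wild type. It rose by 0.35 ± 0.08 (SE) with a limma adjusted p of 0.0156. The other 4 members of the catalytic core were not called, with differences of 0.08 to 0.11. Mrpl30 was 8.76, 8.72 and 8.67 in St2-/- and 8.39, 8.41 and 8.36 in wild type, a rise of 0.33 ± 0.06 (SE) with a limma adjusted p of 0.00419. Mrpl35 rose by 0.31 ± 0.06 (SE), Mrpl34 by 0.26 ± 0.07 (SE) and Mrpl54 by 0.34 ± 0.10 (SE), with limma adjusted p-values of 0.00546, 0.0281 and 0.0444. Mrpl54 was the last member called, and Mrps17, with an adjusted p of 0.0555, the first left out.

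Some calls rested on single arrays. Without St2-/- replicate 3 the large subunit had 7 called members in place of 11. The share of all genes called higher was then 7.35% in place of 10.7%, and Mrpl3 had an adjusted p of 0.0655 in limma. Mrpl47 was lost without St2-/- replicate 3 or wild type replicate 2 or 3 (limma adjusted p 0.0563 to 0.107). Mrpl23 was lost without St2-/- replicate 1 or 3 or wild type replicate 2 or 3 (0.0690 to 0.0956). Mrpl34 was lost without St2-/- replicate 1 or 2 or wild type replicate 1 or 3 (0.0615 to 0.0995). Mrpl54 was lost without any array other than wild type replicate 2 (0.0708 to 0.128). Mrpl1, Mrpl30, Mrpl35 and Mrpl45 kept their call in all 15 alternative settings, as did Mrps18a and Mrps18c.

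Most large-subunit members were not called. Mrpl42, a protein found only in mitochondria, had the greatest difference of the family without passing the test. It read 5.89, 6.0 and 6.76 in St2-/- and 5.75, 5.62 and 5.52 in wild type, a difference of 0.59 ± 0.19 (SE) with a limma adjusted p of 0.0589. St2-/- replicate 3 stood apart in it, and without that array the difference was 0.32 with a limma adjusted p of 0.0519. Mrpl42 was called higher in 4 of the 15 alternative settings, among them the fit without St2-/- replicate 1, where the difference was 0.75 with a limma adjusted p of 0.0295. The 3 members at the base of the factor-binding stalk, Mrpl10, Mrpl11 and Mrpl12, differed by -0.03 to 0.11. The 7 members of the central protuberance, which meets the small subunit, had a median of 0.12 and 0 calls. So few genes cannot set a region apart where 10.7% of all genes and 17.2% of brighter genes were called higher. Mrpl52 of that group read 8.96, 8.74 and 8.83 in St2-/- and 8.67, 8.58 and 8.65 in wild type, with a limma adjusted p of 0.0748. Mrpl58, a hydrolase that frees chains from stalled ribosomes, differed by 0.24 with a limma adjusted p of 0.0643. Mrpl57 and Mrpl55 had the smallest differences, 0.01 and -0.02. At the low end, Mrpl41 read 8.10, 7.99 and 8.02 in St2-/- and 8.22, 8.38 and 8.13 in wild type, a difference of -0.21 ± 0.08 (SE) with a limma adjusted p of 0.0953. Mrpl51 differed by -0.20 ± 0.07 (SE) with a limma adjusted p of 0.0763. After cyclic loess both were called lower, at -0.28 each, with limma adjusted p-values of 0.0241 and 0.0129. With a variance prior that follows intensity both were also called lower (0.0376 and 0.0262 in limma). With dim genes left out Mrpl51 was called lower (limma adjusted p 0.0369). Each of these 2 genes has a second, dimmer probe set, which differed by -0.14 in Mrpl41 and -0.16 in Mrpl51. Neither was called (limma adjusted p 0.195 and 0.342 over the probe sets with 1 gene symbol).

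**Figure D3:**
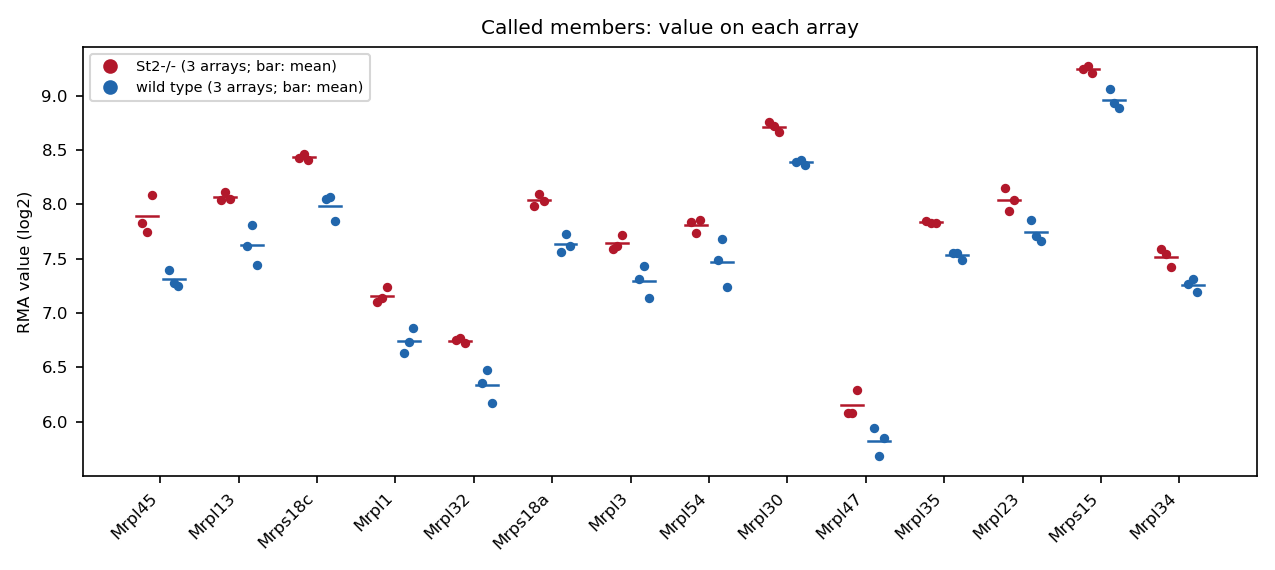
Log2 expression on each of the 6 arrays for the called members, St2-/- left of wild type. All 3 St2-/- points lie above all 3 wild type points in each of the 14 genes.

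The small subunit had 3 of 29 members called higher (10.3%) and 26 not called, with a median difference of 0.15. That share was near the 10.7% of all genes called higher and below the 17.2% of brighter genes. Mammals have 3 genes related to 1 bacterial protein, Mrps18a, Mrps18b and Mrps18c. Mrps18c, which lies on the path of the messenger, read 8.43, 8.46 and 8.41 in St2-/- and 8.05, 8.07 and 7.85 in wild type (probe set 10523541, chromosome 5). It rose by 0.44 ± 0.07 (SE), or 1.36-fold, with a limma adjusted p of 0.00237. Mrps18a, which despite its symbol is built into the large subunit, read 7.99, 8.10 and 8.03 in St2-/- and 7.56, 7.73 and 7.62 in wild type. Its rise was 0.40 ± 0.07 (SE), with a limma adjusted p of 0.0028. Mrps18b read 8.51, 8.36 and 8.47 in St2-/- and 8.35, 8.22 and 8.29 in wild type, a difference of 0.16 ± 0.07 (SE) with a limma adjusted p of 0.142. The groups did not overlap in any of these genes, and whether the differences of the 3 genes differ from one another was not tested.

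Mrps15 was the third small-subunit symbol called. It read 9.25, 9.27 and 9.21 in St2-/- and 9.06, 8.93 and 8.89 in wild type, a rise of 0.28 ± 0.07 (SE) with a limma adjusted p of 0.0158. Without St2-/- replicate 1 or 2 its adjusted p in limma was 0.0512 or 0.0568. The 7 members of the head of the small subunit had a median of 0.16 and 0 calls, and the greatest difference among them was 0.28 in Mrps31. This count, too, is small beside shares of 10.7% of all genes and 17.2% of brighter genes called higher. Along the messenger path, Mrps12, a counterpart of a bacterial decoding protein, read 6.68, 6.85 and 6.63 in St2-/- and 7.08, 6.71 and 6.87 in wild type, with overlapping groups. Mrps26 and Mrps25 had the smallest differences, 0.01 and -0.04. Mrps36, now known as a component of the alpha-ketoglutarate dehydrogenase complex and not of the ribosome, read 5.91, 5.76 and 5.77 in St2-/- and 5.70, 5.78 and 5.46 in wild type, again with overlap.

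By descent and symbol, calls fell on 9 of 30 large-subunit symbols with a bacterial counterpart and on 2 of 18 found only in mitochondria. Among small-subunit symbols these counts were 3 of 18 and 0 of 10. Mrps18a and Mrps30, whose proteins sit in the large subunit, were counted by symbol. Called shares were 30% and 11.1% for the large-subunit classes and 16.7% and 0% for the small-subunit ones. The share called higher was 10.7% over all genes and 17.2% over the brighter genes. Medians of the classes lay close together, at 0.12 and 0.13 for large-subunit symbols and 0.16 and 0.12 for small-subunit ones, and their difference was not tested. Some values are uncertain because RefSeq lists 8 pseudogenes for 6 members, Mrpl23, Mrpl27, Mrpl48, Mrpl51, Mrps33 and Mrps36. The probe sets of 1 gene did not always give the same call. Over the probe sets with 1 gene symbol, those of Mrpl47 differed by 0.33 and 0.19 with limma adjusted p-values of 0.0294 and 0.182. In the same fit both of Mrpl23 were called, at 0.30 and 0.29. With all 35556 probe sets tested, those used for Mrpl47 and Mrpl23 were not called (limma adjusted p 0.078 and 0.0685). Members lay on 17 chromosomes, and the 14 called ones on 13 of them.

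Promoter windows of members are shown because 4 letter patterns bound by regulators of mitochondrial genes could be read in them. Each window of 300 bases runs from 250 before to 50 after a gene's start, from RefSeq on GRCm38.p6, and 68 of the 77 members had at least 1, with 74 in all. Capitals mark the patterns, searched on both strands. They were CCGGAAG, bound by ETS factors such as GABP, AAGATGG, bound by YY1, GCGCATG, a part of the site of NRF-1, and CACGTG, the E-box bound by Myc and Max. The windows shown are those of the 5 called members with the greatest differences among those that had a window, Mrpl45 at chr11:97315466-97315765 on the plus strand, Mrps18c at chr5:100798509-100798808 on the plus strand, Mrpl1 at chr5:96209865-96210164 on the plus strand, Mrpl32 at chr13:14612988-14613287 on the minus strand and Mrps18a at chr17:46110754-46111053 on the plus strand.
Mrpl45: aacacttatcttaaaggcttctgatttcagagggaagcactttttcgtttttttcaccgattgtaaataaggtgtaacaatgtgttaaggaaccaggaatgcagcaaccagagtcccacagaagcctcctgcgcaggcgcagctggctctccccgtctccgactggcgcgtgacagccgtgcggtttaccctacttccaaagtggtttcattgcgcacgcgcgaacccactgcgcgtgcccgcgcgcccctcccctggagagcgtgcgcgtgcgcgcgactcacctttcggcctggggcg
Mrps18c: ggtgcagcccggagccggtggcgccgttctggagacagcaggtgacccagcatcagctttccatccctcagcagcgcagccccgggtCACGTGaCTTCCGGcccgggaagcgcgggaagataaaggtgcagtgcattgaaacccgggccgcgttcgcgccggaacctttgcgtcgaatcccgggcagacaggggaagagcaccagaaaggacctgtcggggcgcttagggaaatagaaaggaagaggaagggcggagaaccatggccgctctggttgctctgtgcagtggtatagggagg
Mrpl1: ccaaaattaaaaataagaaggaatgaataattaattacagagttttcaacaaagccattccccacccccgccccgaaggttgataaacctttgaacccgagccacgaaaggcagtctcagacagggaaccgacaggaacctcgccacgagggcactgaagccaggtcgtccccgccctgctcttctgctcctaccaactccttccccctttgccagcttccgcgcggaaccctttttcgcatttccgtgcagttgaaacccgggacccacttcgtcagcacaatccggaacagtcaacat
Mrpl32: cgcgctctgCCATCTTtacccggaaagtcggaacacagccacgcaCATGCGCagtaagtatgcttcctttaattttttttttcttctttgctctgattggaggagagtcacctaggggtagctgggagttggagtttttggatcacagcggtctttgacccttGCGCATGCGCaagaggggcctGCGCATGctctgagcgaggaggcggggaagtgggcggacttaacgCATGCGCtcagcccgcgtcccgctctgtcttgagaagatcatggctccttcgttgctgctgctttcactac
Mrps18a: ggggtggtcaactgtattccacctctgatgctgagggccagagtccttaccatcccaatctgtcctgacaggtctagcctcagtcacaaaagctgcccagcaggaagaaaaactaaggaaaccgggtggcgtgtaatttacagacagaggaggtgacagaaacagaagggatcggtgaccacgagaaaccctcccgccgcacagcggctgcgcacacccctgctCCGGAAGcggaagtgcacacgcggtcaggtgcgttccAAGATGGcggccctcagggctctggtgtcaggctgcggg
Mrpl45 and Mrpl1 held none of the patterns. Mrps18c held an E-box and, beside it, an ETS pattern on the other strand. Mrpl32 held the NRF-1 pattern at 5 places, some overlapping, and the YY1 pattern. Mrps18a held the ETS pattern before the start and the YY1 pattern after it.

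The ETS pattern stood in 25 of the 74 member windows (33.8%), against 12.1% of the 19116 windows of genes tested, 16.7% of those of brighter genes and 8.86% of all windows. The YY1 pattern stood in 17.6% of member windows, 6.23% of windows of genes tested and 6.97% of those of brighter genes. For NRF-1 the shares were 10.8%, 5.10% and 6.58%, and for the E-box 9.46%, 8.26% and 9.85%. Of the 12 windows of called members, 4 held the ETS pattern and 6 held none of the patterns. No member window had ETS and YY1 patterns sharing letters. A pattern in a window is a match of letters and not a measured site.

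Many members also share their promoter region with a gene on the other strand. A head-to-head neighbour starting within 1000 bases was found for 26 of 68 members (38.2%), against 14.4% of genes tested and 19.1% of the brighter ones. This search was made after values were seen. Of 24 measured partners, 6 were higher and 2 lower. Over all genes 10.7% were called higher and 10.0% lower, and over the brighter genes 17.2% and 13.2%. Mrpl46 and Mrps11 are partners of each other, and both count among the 24. Mrpl32 starts 205 bases from Psma2, a proteasome subunit, which read 9.29, 9.12 and 9.28 in St2-/- and 8.92, 8.85 and 8.96 in wild type and rose by 0.32 with a limma adjusted p of 0.0111. Mrpl47 starts 308 bases from Ndufb5, a subunit of respiratory complex I, which read 8.11, 8.05 and 8.19 in St2-/- and 7.72, 7.62 and 7.60 in wild type. Both genes of each pair were thus called higher. Only 3 partners of called members were measured. Beside the 21 uncalled members with a measured partner, 4 partners were higher and 2 lower. Whether neighbours share calls was not tested. Mrpl30 and Mitd1 start 66 bases apart, and Mitd1 differed by 0.10 with a limma adjusted p of 0.45. Mrps18b starts 756 bases from Ppp1r10, a phosphatase regulator, which fell by 0.61 in St2-/- with a limma adjusted p of 0.000119. Mrpl46 and Mrps11 start 42 bases apart, and neither was called.

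Genes around the mitochondrial ribosome were read from lists of known function. Counts of calls in these lists are to be set beside the 10.7% of all genes and 17.2% of brighter genes called higher. Of 4 measured ribosomal proteins whose symbol lacks the Mrp stem, 3 were higher in St2-/- and the median difference was 0.27. Dap3, a GTP-binding protein of the small subunit, read 7.68, 7.54 and 7.55 in St2-/- and 7.29, 7.42 and 7.18 in wild type, a rise of 0.29 ± 0.08 (SE) with a limma adjusted p of 0.0274. Chchd1 and Ptcd3, also of the small subunit, rose by 0.37 and 0.25 with limma adjusted p-values of 0.0138 and 0.0268. Gadd45gip1, of the large subunit, differed by 0.15 with an adjusted p of 0.208 in limma. Dap3 was lost without any array other than wild type replicate 2, Ptcd3 without any other than wild type replicate 1 or 2 and Chchd1 without St2-/- replicate 3. The highest limma adjusted p with 1 array left out was 0.0978 for Dap3, 0.0854 for Ptcd3 and 0.0588 for Chchd1, and Dap3 was also lost after cyclic loess.

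Among 21 translation factors and related proteins of mitochondria, 4 were higher (19%) and 0 lower, with a median of 0.16. The share called higher was 10.7% over all genes and 17.2% over the brighter genes. Oxa1l, which inserts newly made chains into the inner membrane, read 8.93, 8.96 and 9.01 in St2-/- and 8.71, 8.60 and 8.56 in wild type and rose by 0.34 with a limma adjusted p of 0.00544. Slirp, which stabilises mitochondrial messengers, rose by 0.28, Mtfmt, which formylates the initiator transfer RNA, by 0.29 and 2810006K23Rik by 0.25. Mtfmt was lost without St2-/- replicate 1 or wild type replicate 1 (limma adjusted p 0.0577 and 0.0502), 2810006K23Rik without any 1 array (0.0585 to 0.172) and Slirp after cyclic loess (0.0593). Of 16 mitochondrial transfer RNA synthetases only Pars2, for proline, was called, with a rise of 0.33, and it was lost without St2-/- replicate 1 or 2 or wild type replicate 2 or 3 (limma adjusted p 0.0528 to 0.0679). Of 28 assembly factors of the ribosome only Rpusd4, a pseudouridine synthase, was called, with a rise of 0.35 and a limma adjusted p of 0.00672. Calls made up 6.25% of the synthetases and 3.57% of the assembly factors, below the shares over all and over brighter genes. The medians of these lists were 0.07 and 0.06, below the 0.14 of the ribosomal proteins, a contrast that was not tested.

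Of 18 genes for transcription and copying of mitochondrial DNA, 2 were higher (11.1%) and 1 lower. That share higher stood beside 10.7% of all genes and 17.2% of brighter genes. Polg2, the accessory subunit of the DNA polymerase, read 7.85, 7.75 and 7.75 in St2-/- and 8.59, 8.56 and 8.69 in wild type, and fell by 0.83 with a limma adjusted p of 2.25e-05. Pnpt1, an RNA-degrading enzyme, rose by 0.31, and Tefm, the elongation factor, by 0.26. Pnpt1 was lost without St2-/- replicate 1 or 3 (limma adjusted p 0.0578 and 0.0544), and Tefm without St2-/- replicate 1 or 2 or wild type replicate 2 or 3 (0.0537 to 0.088). Tfam, which packs mitochondrial DNA, differed by 0.49 with a limma adjusted p of 0.0514. It was called in 7 of the 15 alternative settings, and its difference ran from 0.30 without wild type replicate 3 to 0.62 without wild type replicate 1. Among 17 regulators of mitochondrial genes, 2 were higher (11.8%). Max, the partner of Myc, read 9.32, 9.31 and 9.26 in St2-/- and 8.68, 8.76 and 8.68 in wild type and rose by 0.59 with a limma adjusted p of 0.00012. Mxd1, a Max partner that opposes Myc, rose by 0.47, and Nrf1, which encodes NRF-1, differed by 0.17 with a limma adjusted p of 0.1.

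The products of mitochondrial translation join nuclear-encoded subunits, of which 11 of 78 were higher (14.1%) and 1 lower, with a median of 0.11. After cyclic loess these counts were 5 higher and 3 lower, with a median of 0.02. Ndufb5 rose by 0.47, Ndufa6 by 0.38 and Uqcrc2 by 0.35. Of 23 import components 3 were higher (13%), with Tomm70a, an outer-membrane receptor, up by 0.45. Of 17 chaperones and proteases 7 were higher (41.2%), with Hspe1, the small partner of the matrix chaperonin, up by 0.38. The share called higher was 10.7% over all genes and 17.2% over the brighter genes. The ribosome of the cytosol had 26 of 60 members higher (43.3%) and 0 lower, with a median of 0.17. After cyclic loess 8 of them were higher, with a median of 0.10. Rps20 and Rps13 rose by 0.41 and 0.39. Over these lists and the cell cycle list given next, 84 of 318 genes were called, against 46 without St2-/- replicate 1, 45 without St2-/- replicate 3 and 49 after cyclic loess. The sharing of calls between the lists and the members was not tested.

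**Figure D4:**
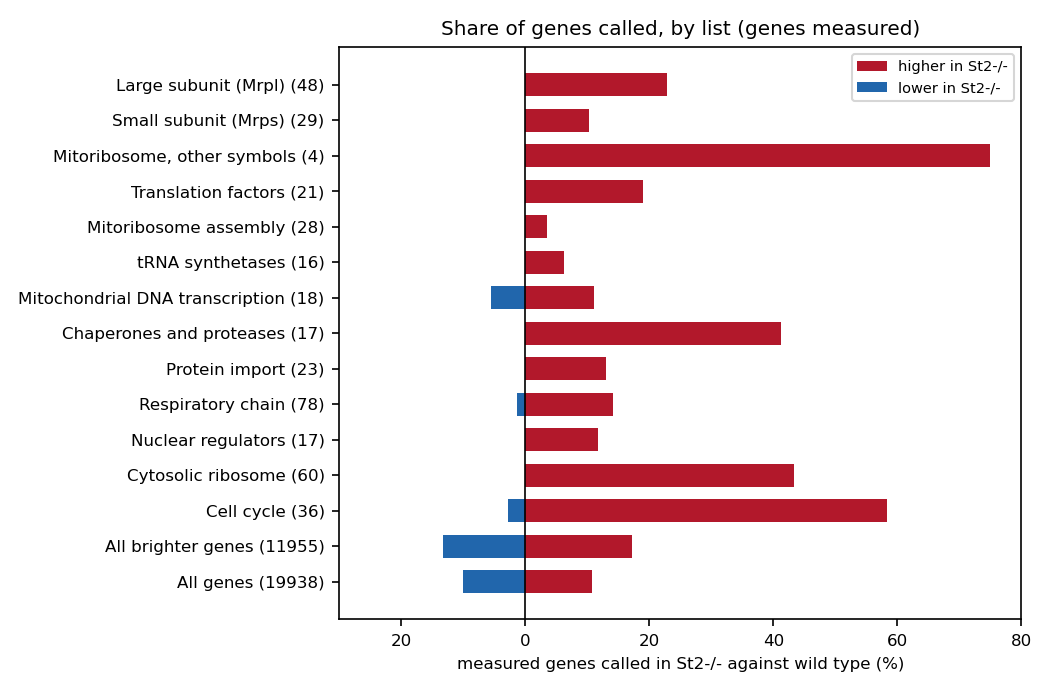
Share of measured genes called higher or lower in St2-/- against wild type, for each subunit, each related list, the brighter genes and all genes. Shares called higher run from 3.57% for assembly factors to 75% for ribosomal proteins of other names, against 10.7% of all genes. Median differences, which are not drawn, lie above 0 in each related list, from 0.04 for the regulators to 0.27 for ribosomal proteins of other names.

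Marker transcripts of the cell cycle and of other cell types also differed between the groups. Over all genes, 10.7% were called higher and 10.0% lower. Cell cycle genes were higher in 21 of 36 and lower in 1 (10 higher and 1 lower after cyclic loess), with a summed linear level of 15163 to 15573 in St2-/- and 13438 to 13853 in wild type. Of 11 macrophage markers 4 were higher and 4 lower, with sums of 28695 to 29862 in St2-/- and 32396 to 33515 in wild type. Dendritic cell markers were higher in 3 and lower in 2 of 10, with sums of 3264 to 3408 in St2-/- and 1294 to 1375 in wild type. T cell markers were higher in 6 and lower in 1 of 9, with sums of 633 to 670 in St2-/- and 350 to 377 in wild type. Such sums weigh bright genes most. In the dendritic list Itgax and Xcr1 differed by 1.8 and 3.37, against a list median of -0.01. In the T cell list Cd4 differed by 2.19, against a list median of 0.41. NK cell markers were higher in 5 of 9, with sums of 330 to 411 in St2-/- and 155 to 158 in wild type, and B cell markers in 2 of 6, with 299 to 317 in St2-/- and 202 to 224 in wild type. Fibroblast markers were lower in 8 and higher in 1 of 10, with 1612 to 1723 in St2-/- and 5981 to 6358 in wild type. Neutrophil markers were lower in 5 of 10, with 265 to 277 in St2-/- and 793 to 858 in wild type. Endothelial markers were lower in 6 and higher in 2 of 9, with 769 to 793 in St2-/- and 936 to 1045 in wild type, and epithelial markers were lower in 1 of 9, with 791 to 828 in St2-/- and 845 to 932 in wild type. Array values have no true zero, so no marker could be read as absent. The part of these transcripts in the differences of the ribosomal proteins was not tested.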

How the data were processed

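RNA of F4/80+ cells was hybridised to Affymetrix Gene 1.0 ST arrays, 3 per group, per the labels' protocols. The authors deposited RMA values, per the submitters' processing notes. The method adjusts for background, equalizes quantiles across arrays and combines probes by median polish. Neither its version nor the log base is given in the sources used here, and the deposited values were read as log2, the scale that RMA yields. Quantile normalization hides a shift shared by most genes. Of 35556 probe sets, 21789 had 1 gene symbol in the platform annotation, 1621 several and 12146 were not listed. Each gene was read from its probe set of highest mean. The St2-/- minus wild type contrast was fitted in limma 3.58.1 under R 4.3.3 (lmFit, eBayes, two-sided, Benjamini-Hochberg over 19938 genes), with no filter on dim genes. The procedure was tested on simulated data of 3 arrays per group. It recovered 12.5% of changes of 0.25 and 93.9% of changes of 0.5 on the log2 scale, and 5.98% of calls were false. Only 200 genes were changed per draw, fewer than were called here, so recovery in these data may differ. A gene not called may thus still differ between the groups. Members and lists were chosen with earlier results of these data known. Named genes were, per subunit, called members up to the 8 greatest rises and falls, the 2 smallest differences, the highest and lowest mean, the Mrps18 genes, and up to 4 genes of smallest p per related list. Adgre1, Csf1r, Cd68, the other named macrophage markers, the head-to-head partners and the genes of the classes by role were added after values were seen. So were Mrpl33, Mrpl42, Mrpl51, Mrpl58, Mrps17 and Mrps31. The 15 alternatives changed scaling, variance model, rows, filter, block or arrays. Linear levels of marker lists are sums of 2 raised to the deposited value.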

Additional observations from a re-analysis of the deposited data

How the results depend on the processing

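Calls depended on scaling, variance model and single arrays. Large-subunit calls, 11 as reported, were 6 with all rows of the table tested, 4 in a plain two-sample test per gene, 18 without the dimmest 40% of genes (17 higher, 1 lower), 18 with a variance prior following intensity (16 higher, 2 lower), 10 after cyclic loess (8 higher, 2 lower) and 20 with arrays centred on their median. The share of genes called higher was 7.81% with all rows, 7.43% in the plain test and 21.4% without the dimmest genes. It was 13.5% with the intensity prior, 8.67% after cyclic loess and 18.5% with centring, against 10.7% as reported. Genes called lower numbered 1949 of 11955 without the dimmest genes. They numbered 2171 of 19938 with the intensity prior and 1964 of 19938 after cyclic loess. The share with all rows is over the 19938 probe sets used for genes, not over every row. Small-subunit calls, 3 as reported, were 6 without the dimmest genes and 12 with centring. Of the 14 called members, 9 were called with all rows and 7 in the plain test. Calls in the related lists, 84 as reported, were 49 after cyclic loess and 157 with centring, and the plain test called 2703 of all genes. Leaving out 1 array at a time gave 2887 to 3852 calls over all genes, 7 to 10 in the large subunit, 2 to 4 in the small, 10 to 12 of the called members and 45 to 69 in the related lists. Same-numbered arrays had correlations of 0.01, -0.01 and -0.05 in their deviations from the group means. The labels state no pairing, and values from so few arrays cannot decide whether equal numbers mark one. With the replicate block 3571 genes, 10 large-subunit, 3 small-subunit, 13 of the called members and 62 related genes were called, and Mrpl54 had a limma adjusted p of 0.0677. Direction reversed in genes near 0. Mrpl55 was 0.01 with array weights, 0.07 with centring and 0.08 without wild type replicate 3. Mrps26 was -0.01 with array weights, -0.04 and -0.09 without St2-/- replicate 1 and 2 and -0.04 without wild type replicate 1. Mrps25 was 0.05 with centring, 0.02 without St2-/- replicate 3 and 0.05 without wild type replicate 2. Without 1 array Mrpl57 ranged from -0.04 to 0.06, Mrps25 from -0.11 to 0.05 and Mrps26 from -0.09 to 0.14. Mrpl57 was -0.04 without St2-/- replicate 3 and -0.03 without wild type replicate 3. Csf1r was -0.04 after cyclic loess and Cd68 0.05 with centring. Of the 14 called members, 6 kept the call under all 15 settings and 8 lost it under at least 1. The causes were not tested. The number of arrays limits the precision.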
